A study of Homo sapiens with 8 samples.

Results

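The collagen genes on a human genome-wide array were examined in 4 FT293 cell lines, which express GFP, HuR, TIA1 or TIAR. Members were chosen by gene name (COL, a type number, A and a chain number), by a rule that used no measured value. Earlier results of these data were known when the family was chosen. The members comprised 43 of the 36337 gene names and 65 of the 50599 probes of the array. FT293 cells are HEK293 human embryonic kidney cells of the Flp-In T-REx system, in which a transgene integrated at a single genomic site is switched on by tetracycline. The GFP line expressed GFP alone, and each of the other lines expressed the protein it is named for, fused to GFP. All lines, controls included, were isogenic and received tetracycline, and RNA was taken on day 3. Each line had 2 arrays, labeled as independent biological replicates, so 8 arrays were available and no untreated cells were among them. One label of TIA1 replicate 2 reads GFP-TIA2, whereas its title and genotype read TIA1, and it was kept as TIA1.

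Collagens are the main structural proteins of the extracellular matrix. Their chains wind into a helix in the endoplasmic reticulum after hydroxylation of proline and lysine residues, and fibrillar collagens are trimmed and cross-linked after secretion. Fibrillar types form the fibers of cartilage, skin and bone, fibril-associated types decorate their surface, and type IV chains build the network of basement membranes, including those of the kidney. TIA1 and TIAR are RNA-binding proteins that act in alternative splicing and translational silencing, and HuR, encoded by ELAVL1, is best known for stabilizing AU-rich mRNAs.

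The type IV genes lie head to head in pairs, COL4A1 with COL4A2, COL4A3 with COL4A4 and COL4A5 with COL4A6, and are transcribed in opposite directions from the DNA between their starts. The values of both genes of each pair are set side by side further on, and for orientation the sequence upstream of the plus-strand gene of each pair is shown (RefSeq, GRCh38.p14, plus strand). Capitals mark GC boxes (GGGCGG) and CCAAT boxes (CCAAT) on either strand. The interval between COL4A1 and COL4A2 spans 126 bases (chr13:110307158-110307283) and is given whole, and for the others the 250 bases next to the plus-strand gene are given, out of 418 between COL4A4 and COL4A3 (chr2:227164374-227164623) and 379 between COL4A6 and COL4A5 (chrX:108439588-108439837).
COL4A1-COL4A2: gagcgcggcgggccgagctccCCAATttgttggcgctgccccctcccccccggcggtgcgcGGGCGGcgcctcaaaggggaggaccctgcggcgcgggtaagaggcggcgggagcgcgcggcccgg
COL4A4-COL4A3: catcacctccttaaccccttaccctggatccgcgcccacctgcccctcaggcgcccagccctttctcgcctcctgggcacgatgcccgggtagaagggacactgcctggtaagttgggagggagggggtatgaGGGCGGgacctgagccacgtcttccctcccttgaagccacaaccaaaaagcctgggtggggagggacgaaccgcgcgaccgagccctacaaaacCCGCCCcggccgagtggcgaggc
COL4A6-COL4A5: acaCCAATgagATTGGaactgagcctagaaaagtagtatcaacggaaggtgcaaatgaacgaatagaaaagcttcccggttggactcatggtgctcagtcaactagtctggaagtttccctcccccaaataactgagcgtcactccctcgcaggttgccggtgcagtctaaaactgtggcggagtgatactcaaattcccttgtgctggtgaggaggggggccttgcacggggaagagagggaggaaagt

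These windows differed in base composition. The COL4A1-COL4A2 interval had a GC content of 80.2% with 1 GC box and 1 CCAAT box, the COL4A4-COL4A3 window 66.4% with 2 GC boxes, and the COL4A6-COL4A5 window 51.2% with 2 CCAAT boxes and 0 GC boxes. Over all 35116 RefSeq promoters the median GC content was 58.0% in windows of 250 bases, in which a GC box occurred in 42.6% and a CCAAT box in 32.0%. In windows of 126 bases the median was 60.3%, with a GC box in 34.6% and a CCAAT box in 21.1%. Such letters are common, and their presence or absence says nothing here about binding of a factor.

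Signals are given below as log2 of the processed signal of a probe relative to the 75th percentile of its array, so that 0 is a bright probe. Levels of different probes are not comparable, and a probe is called detected in a line when the scanner software marked it well above background on both arrays. Of the 43 collagen genes, 29 in GFP-, 32 in HuR-, 30 in TIA1- and 30 in TIAR-expressing cells had a detected probe, and 28 genes had one in all 4 lines. By probe, 38, 44, 42 and 42 of the 65 collagen probes were detected in this order of lines. Over the whole array 26821, 28139, 26531 and 27618 of 50599 probes were. The 10 genes detected in no line were COL1A2, COL3A1, COL6A3, COL6A5, COL6A6, COL8A2, COL11A1, COL15A1, COL17A1 and COL22A1. Thus the chain partners were unevenly represented. COL1A1 was detected in all lines and COL1A2, which pairs with it in type I collagen, in none. COL6A1 and COL6A2 were detected and the third classical type VI chain, COL6A3, was not. COL11A2 was detected with 3 probes and COL11A1 in no line. When 1 array of a line sufficed, the counts were 38, 32, 32 and 33 genes in the same order of lines.

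GFP replicate 1 stood apart from the other 7 arrays. On it 86.0% of all probes were well above background, against 53.2 to 58.5% on the others, and its mean local background was 83.2 against 35.7 to 41.5 intensity units. Of the 65 collagen probes, 54 were well above background on GFP replicate 1 and 39 on GFP replicate 2. The 16 probes that were so only on GFP replicate 1 belonged to 13 genes, and 8 of these probes were dark on the 6 arrays of the other lines as well. The signal of GFP replicate 1 exceeded that of GFP replicate 2 by at least 1 on the log2 scale for 27 of the 65 probes, most of all for a COL12A1 probe (6.37), and the opposite was seen for 0. In the other lines 7 of 195 such pairs lay at least 1 apart. COL1A1, for instance, measured 1.36 on GFP replicate 1 and -2.78 on GFP replicate 2, and COL5A3 measured -0.44 and -6.56. The largest gap outside the GFP line, 5.69, belonged to a COL22A1 probe that was bright on TIAR replicate 1 (-1.84) and dark on TIAR replicate 2 (-7.53).

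**Figure D1:**
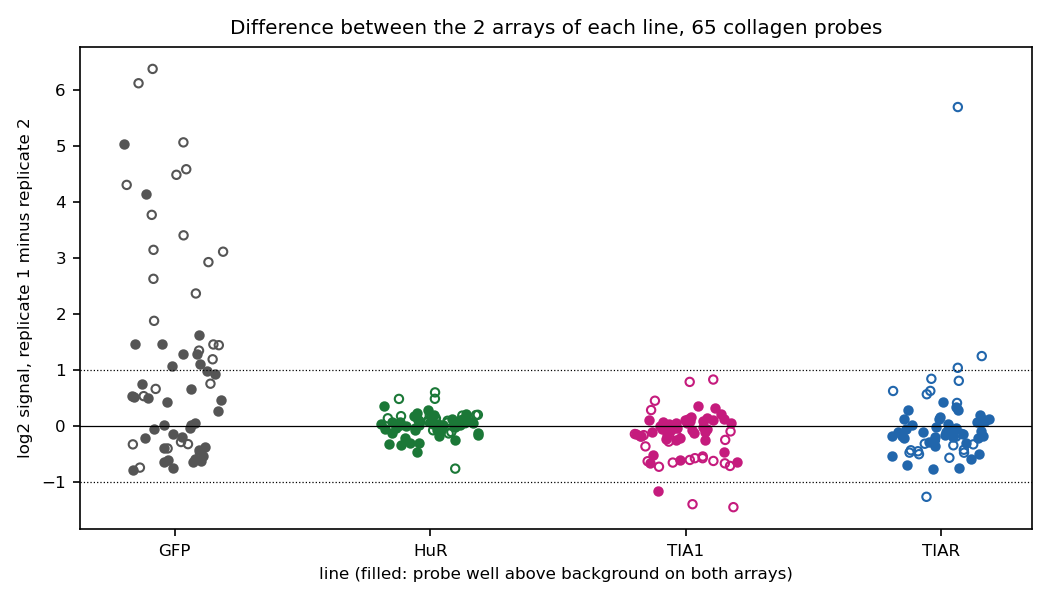
Difference in log2 signal between replicate 1 and replicate 2 (vertical axis) for the 65 collagen probes in each line (horizontal axis, points spread sideways for visibility). Filled points are probes detected in the line, and dotted lines mark a difference of 1. In the GFP line 27 probes lie above 1 and 0 below -1, while in the HuR line all lie between the dotted lines.

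Labels and cell identity were checked on the same scale. A probe of TIAL1, the gene of TIAR, measured 4.87 and 4.98 in TIAR-expressing cells and 1.63 to 2.52 on the other 6 arrays. Another, dim TIAL1 probe was not higher in TIAR-expressing cells (-4.12 and -3.85, against -3.57 and -3.61 in HuR-expressing cells). The ELAVL1 probe (0.33 and 0.42 in HuR-expressing cells, 0.91 and 1.09 in GFP-expressing cells) was not higher in HuR-expressing cells. One TIA1 probe measured -0.05 and 0.17 in GFP-, -0.04 and 0.06 in HuR-, -0.97 (mean of both arrays) in TIA1- and -1.77 and -1.36 in TIAR-expressing cells, thus lower in the TIA lines (-0.98 against HuR with TIA1, adjusted p = 0.00473, and -1.58 with TIAR, adjusted p = 0.00879), and the other gave -0.52 and -0.55. Whether these probes lie in the part of the gene that the transgenes carry is not given in the sources used here. Thus only the TIAR label was checked, by the brighter probe of its gene. Of 6 markers of HEK293 cells (PAX2, NEFL, NEFM, VIM, KRT8 and KRT18), 6 were detected in each line except the GFP line, with 5. Of 7 fibroblast markers, DCN, FBLN1, LUM and PDGFRA were detected in HuR-, TIA1- and TIAR-expressing cells and FBLN1 and PDGFRA in GFP-expressing cells, whereas PDGFRB, FAP and THY1 were not well above background on any array. The summed signal of the fibroblast list, in multiples of the 75th percentile of the array, was 2.71 to 2.76 in HuR-, 6.06 to 6.45 in TIA1-, 6.16 to 6.56 in TIAR- and 3.60 to 4.48 in GFP-expressing cells, and FBLN1 gave its brightest probes. LUM went the other way with TIA1, at -1.65 against HuR (adjusted p = 0.00436), and was lowest in GFP-expressing cells (-5.61 and -6.08, against -1.63 and -1.71 with HuR). The cartilage list (4 of 6 detected in HuR-, 3 in TIA1-, 4 in TIAR- and 5 in GFP-expressing cells) summed to 0.313 to 0.337, 0.407 to 0.449, 0.429 to 0.442 and 0.461 to 0.885, with HAPLN1 in no line. The bone list (BGLAP and SP7 of 5 detected in every line, and IBSP, DMP1 and SPP1 in none) summed to 0.817 to 0.830, 1.75 to 2.06, 1.65 to 1.75 and 0.721 to 1.25 in that order. In HuR-, TIA1- and TIAR-expressing cells its brightest probe, BGLAP, averaged -0.55, 0.82 and 0.65, while SP7 averaged -3.14, -3.11 and -3.16. The leukocyte list, of which CD14, CD68 and PTPRC were detected in every line and CD3E in none, summed to 0.834 to 0.965, 1.91 to 2.00, 2.06 to 2.07 and 0.849 to 3.03. Such sums mostly follow the brightest probes of a list. PTPRC was detected through probe A_33_P3364808 alone, and its other probes were detected in no line. This probe measured 1.12 on GFP replicate 1 and -4.15 on GFP replicate 2. The endothelial list (VWF and CDH5 of 5 detected in every line) stayed between 0.103 and 0.251 on all arrays. All lines are HEK293 cells, so these lists describe marker RNA in these cells and not the presence of other cell types. The part of these shifts in the collagen values was not tested. In bulk RNA a larger share of cells with a marker and more RNA per cell cannot be told apart.

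In TIA1-expressing cells, compared with HuR-expressing cells, RNA levels of several fibrillar and type VI collagen genes were higher, and those of COL4A3, COL4A5 and COL4A6 among the type IV genes were lower. Of 32 collagen genes tested, 9 were upregulated and 3 downregulated (limma, adjusted p under 0.05 and a change of 2-fold or more). Among all 21242 gene names tested, 10.2% were upregulated and 5.79% downregulated, against 28.1% and 9.38% of the collagen genes. The median log2 difference of the 45 collagen probes tested was 0.33, and that of all probes tested 0.08. Upregulated were COL2A1, COL5A1, COL5A2 and COL24A1 (4 of 7 fibrillar genes tested), COL6A1 and COL6A2 (2 of 2 of type VI), COL7A1, COL16A1 and COL23A1, and downregulated were COL4A3, COL4A5 and COL4A6 (3 of 6 of type IV). COL16A1, dark with HuR, and COL4A3, dark with TIA1, entered the test through the line in which they were bright. Among the 30 collagen genes with a probe well above background on all 4 arrays, 8 were upregulated (26.7%, against 9.11% of all gene names) and 2 downregulated (6.67%, against 4.54%).

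TIAR-expressing cells, compared with the same HuR arrays, had 7 upregulated and 2 downregulated of 33 collagen genes tested, that is 21.2% and 6.06%, against 8.62% and 3.66% of the 21526 gene names tested. The median log2 difference of 46 collagen probes was 0.26, and 0.05 over all probes. COL2A1, COL5A2, COL5A3 and COL24A1 (4 of 8 fibrillar genes), COL7A1, COL16A1 and COL23A1 were upregulated, and COL4A5 (1 of 6 type IV genes) and COL19A1 were downregulated. COL5A3 and COL16A1, dark with HuR, and COL19A1, dark with TIAR, entered through 1 line. Without such probes 5 of 29 collagen genes were upregulated (17.2%, against 6.88% of all gene names) and 1 was downregulated (3.45%, against 3.15%). No type VI gene was called (0 of 2). Both comparisons rest on the same HuR arrays, so that a deviation of these arrays enters both. The small number of arrays, 2 per line, limited the precision of all values. Each protein was represented by a single line, so an effect of the protein and another difference between lines cannot be told apart. The p-values measure the spread between arrays of a line and not between lines. Against HuR, 52.4% of all probes tested with TIA1 and 45.4% with TIAR had an unadjusted limma p under 0.05. Several of the calls with TIAR were lost without HuR replicate 1 or HuR replicate 2, as given by gene below.

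Between TIAR- and TIA1-expressing cells 2 of 31 collagen genes tested differed, COL2A1 and COL23A1, both lower in TIAR-expressing cells. Of the 20786 gene names tested, 1.37% were lower and 1.56% higher. The median log2 difference was -0.12 over 43 collagen probes and -0.02 over all. Both calls were lost when any 1 of the 4 arrays was left out, although the COL2A1 difference stayed between -3.30 and -2.81 on the log2 scale under all limma alternatives.

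**Figure D2:**
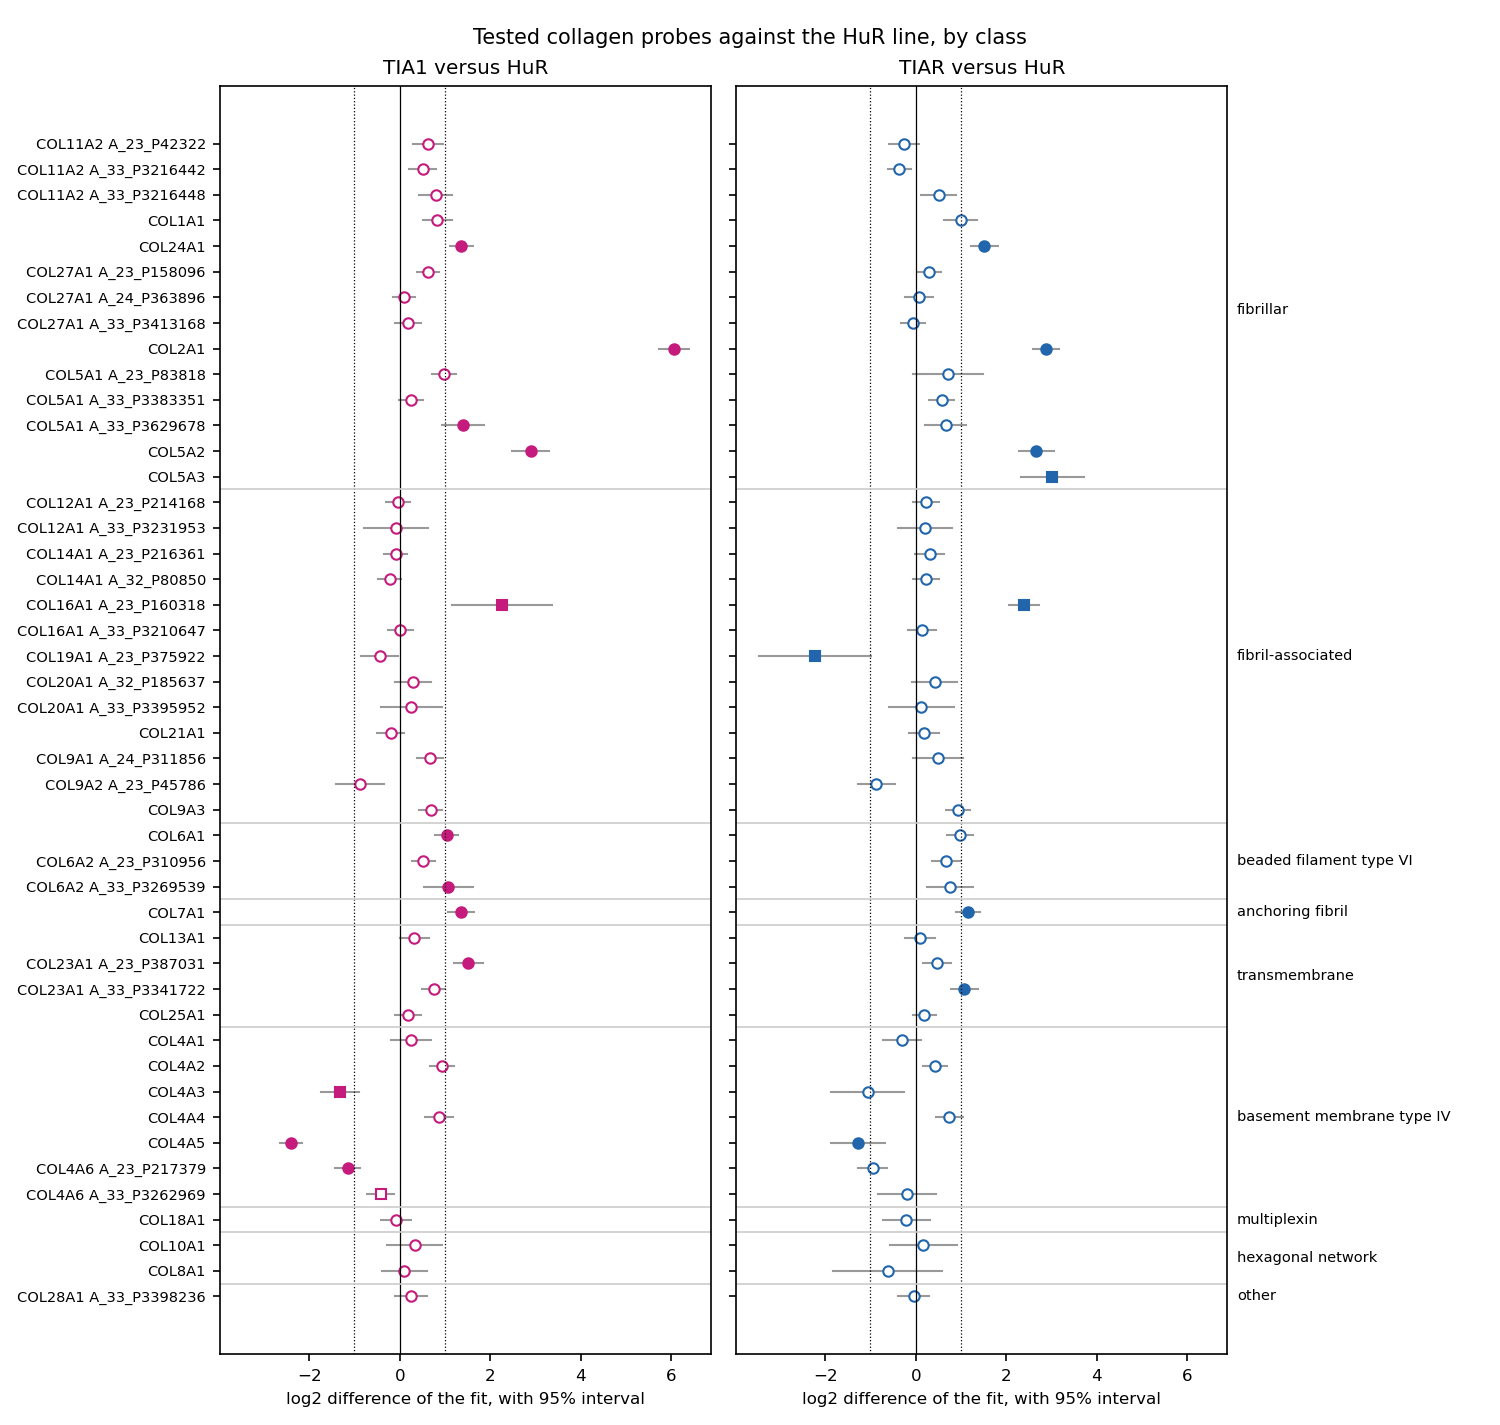
Fitted log2 difference with its 95% interval (horizontal axes) for each tested collagen probe (vertical axis, by class) in TIA1- (left) and TIAR-expressing cells (right) relative to HuR-expressing cells. Filled symbols were called, squares are probes that were dark on both arrays in 1 of the lines, so that their fitted value is no measured fold change, and dotted lines mark a 2-fold change. COL2A1 and COL5A2 lie farthest to the right among the circles in both panels, and COL4A5 farthest to the left.

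The largest difference among collagens detected in both lines was that of COL2A1, the chain of type II collagen, known from cartilage. Its probe (A_23_P500464, NM_001844, hg19 chromosome 12 from 48366949 to 48367008) measured 1.30 and 1.93 in GFP-, -5.67 and -5.74 in HuR-, 0.25 and 0.48 in TIA1- and -2.75 and -2.89 in TIAR-expressing cells. The lines did not overlap, with GFP-expressing cells highest, then TIA1, TIAR and HuR. The probe stayed well above background on all 8 arrays. Its HuR signals lay close to the dimmest that these arrays marked so (-5.92 and -6.11). TIA1-expressing cells exceeded HuR-expressing cells by 6.07 on the log2 scale (standard error 0.12, 67.0-fold, adjusted p = 0.00148), and TIAR-expressing cells did by 2.88 (standard error 0.10, 7.37-fold, adjusted p = 0.00359). Under the limma alternatives these log2 differences ranged from 4.02 to 6.18 with TIA1 and from 1.185 to 2.95 with TIAR. TIAR- were below TIA1-expressing cells by a log2 difference of -3.18 (standard error 0.14, adjusted p = 0.0115).

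Type V collagen, which is built into fibrils together with type I, was represented by 3 genes. COL5A2 (A_23_P33196, hg19 chromosome 2 from 189897429 to 189897488) measured -3.22 and -3.09 in GFP-, -4.44 and -4.12 in HuR-, -1.32 and -1.45 in TIA1- and -1.62 and -1.60 in TIAR-expressing cells. Both TIA lines thus lay above GFP- and HuR-expressing cells without overlap. The log2 difference from HuR-expressing cells was 2.90 (standard error 0.15, adjusted p = 0.00215) with TIA1 and 2.67 (standard error 0.14, adjusted p = 0.00396) with TIAR. The TIA lines differed from each other by -0.22 (95% interval -0.53 to 0.08, adjusted p = 0.326).

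COL5A1, the chain that type V molecules share, had 3 probes that moved by different amounts. The brightest (A_33_P3629678, hg19 chromosome 9 from 137736327 to 137736386) measured 1.04 and 1.69 in GFP-, 0.06 and -0.22 in HuR-, 1.48 and 1.15 in TIA1- and 0.43 and 0.74 in TIAR-expressing cells. It was called with TIA1 (1.39, standard error 0.17, adjusted p = 0.00750) and not with TIAR (0.66, adjusted p = 0.0505), and the difference between the TIA lines was not called either (-0.73, adjusted p = 0.107). Without HuR replicate 2 the adjusted p with TIA1 was 0.0545, just outside the threshold. The other probes gave 0.97 and 0.25 with TIA1 and 0.71 and 0.58 with TIAR. COL5A3 (A_23_P55749, chromosome 19) was detected in TIAR-expressing cells alone, at -4.33 and -4.68. It was not well above background in HuR-expressing cells (-7.23 and -7.83), and TIAR-expressing cells were at least 2.86-fold higher (adjusted p = 0.00618). In TIA1-expressing cells it was well above background on 1 of 2 arrays (-5.05 and -5.34). The COL5A3 call was lost with normexp (0.98), the values of the authors (0.48) and all 8 arrays in one fit (adjusted p = 0.347).

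COL24A1, a fibrillar chain of developing bone, measured -3.95 and -4.61 in GFP-, -3.76 and -3.77 in HuR-, -2.36 and -2.45 in TIA1- and -2.34 and -2.16 in TIAR-expressing cells (A_23_P74701, hg19 chromosome 1 from 86195355 to 86195414). All 4 arrays of the TIA lines were above the other 4. The log2 differences from HuR-expressing cells were 1.36 (standard error 0.09, adjusted p = 0.00286) with TIA1 and 1.51 (standard error 0.11, adjusted p = 0.00528) with TIAR. The call with TIAR was lost without HuR replicate 1 (adjusted p = 0.0550) or HuR replicate 2 (adjusted p = 0.0584), and the values of the authors put both differences under 2-fold (0.71 and 0.90). COL1A1, the major chain of type I collagen, passed the p threshold but not the 2-fold limit in both comparisons. It measured -2.35 and -2.38 in HuR-, -1.42 and -1.64 in TIA1- and -1.22 and -1.51 in TIAR-expressing cells, which gave log2 differences of 0.83 (adjusted p = 0.00977) and 1.00 (1.997-fold, adjusted p = 0.0132). The 2 remaining fibrillar genes tested, COL11A2 and COL27A1, were not called. The COL11A2 probes gave 0.51 to 0.80 with TIA1 and -0.37 to 0.51 with TIAR.

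Outside the fibrillar class, COL7A1, which forms the anchoring fibrils of epithelial basement membranes, was called higher in both TIA lines than in HuR-expressing cells. It measured -2.09 and -2.62 in GFP-, -2.21 and -2.28 in HuR-, -0.96 and -0.81 in TIA1- and -1.07 and -1.11 in TIAR-expressing cells (A_23_P144071, hg19 chromosome 3 from 48602401 to 48602588). The TIA lines lay above both other lines. The log2 differences from HuR-expressing cells were 1.36 (standard error 0.11, adjusted p = 0.00330) and 1.16 (standard error 0.09, adjusted p = 0.00595). With TIAR the adjusted p was 0.0592 without HuR replicate 1 and 0.0677 without HuR replicate 2.

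Type VI collagen makes beaded filaments around cells. COL6A1 (A_32_P32254, chromosome 21) measured 3.28 and 3.71 in GFP-, 3.33 and 3.30 in HuR-, 4.30 and 4.41 in TIA1- and 4.22 and 4.38 in TIAR-expressing cells, again with the TIA lines above the others. Its log2 difference was 1.04 (adjusted p = 0.00431) with TIA1 and 0.98 (adjusted p = 0.00891) with TIAR, so that the call with TIA1 and its absence with TIAR lie on either side of the 2-fold limit. The difference between the TIA lines was -0.06 (95% interval -0.39 to 0.27), and without TIA1 replicate 2 the TIA1 difference was also under the limit (0.99). COL6A2 had 2 probes, for different transcripts. One (A_33_P3269539) measured -2.94 and -2.47 in HuR-, -1.76 and -1.51 in TIA1- and -1.97 and -1.94 in TIAR-expressing cells, with log2 differences of 1.07 (adjusted p = 0.0191) and 0.75 (adjusted p = 0.0470), and the other gave 0.52 and 0.68 and was not called. The COL6A2 call was lost without HuR replicate 1 (0.84) or TIA1 replicate 2 (0.95).

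COL23A1, a transmembrane collagen, was called through a different probe in each comparison. The probe in NM_173465 (A_23_P387031, hg19 chromosome 5 from 177664805 to 177664864) measured -2.78 and -3.88 in GFP-, -3.85 and -4.03 in HuR-, -2.36 and -2.48 in TIA1- and -3.49 and -3.43 in TIAR-expressing cells. It was higher in TIA1- than in HuR-expressing cells by 1.52 (adjusted p = 0.00324), and TIAR- were below TIA1-expressing cells (-1.04, adjusted p = 0.0339). The probe in ENST00000407622 (A_33_P3341722, from 177989030 to 177989089), at the opposite end of the gene, measured 1.65 and 1.84 in GFP-, 1.95 and 1.95 in HuR-, 2.65 and 2.75 in TIA1- and 2.94 and 3.12 in TIAR-expressing cells. It gave 0.75 with TIA1, under the 2-fold limit, and 1.08 (adjusted p = 0.00829) with TIAR, and the TIA lines differed there by 0.33 (95% interval -0.02 to 0.67). The order of the TIA lines was thus opposite at these probes. The call with TIAR was lost without HuR replicate 1 (adjusted p = 0.0736), HuR replicate 2 (adjusted p = 0.0785) or TIAR replicate 2 (difference 0.98).

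Fibril-associated collagens were mostly not called (1 of 9 genes upregulated with TIA1, and 1 up- and 1 downregulated of 9 with TIAR, that is 11.1% each, against the 10.2%, 8.62% and 3.66% of all gene names). COL16A1 was called through a probe (A_23_P160318, hg19 chromosome 1 from 32118175 to 32118234) that was not well above background in HuR-expressing cells (-6.62 and -6.82). It measured -5.04 and -3.88 in TIA1- and -4.27 and -4.40 in TIAR-expressing cells, that is at least 2.95-fold (adjusted p = 0.0176) and at least 3.22-fold higher (adjusted p = 0.00375). The call with TIA1 was lost without HuR replicate 1 or 2, with the values of the authors, without a filter on dim probes and with all 8 arrays in one fit. With TIAR it was lost with normexp, the values of the authors and all 8 arrays in one fit. The log2 differences fell as low as 0.67 with TIA1 and 0.47 with TIAR under the limma alternatives. A second COL16A1 probe, toward the 5′ end of the gene, was brighter on average and detected in all lines. It gave 0.02 and 0.14 and was not called. COL19A1 was detected only in HuR-expressing cells (-5.09 and -4.75) and not well above background with TIAR (-6.53 and -7.77), where it was at least 1.83-fold lower (adjusted p = 0.0305), under the 2-fold limit that the fitted value of -2.23 passed. The COL19A1 call was lost without HuR replicate 1 or 2, with normexp, the values of the authors, no filter on dim probes and all 8 arrays in one fit. Its other 2 probes were detected in no line. Among chains of type IX collagen, which sits on type II fibrils, none passed the 2-fold limit. COL9A2 gave -0.87 and -0.87, COL9A3 gave 0.69 and 0.94, and COL9A1 gave 0.67 and 0.49 with TIA1 and TIAR.

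**Figure D3:**
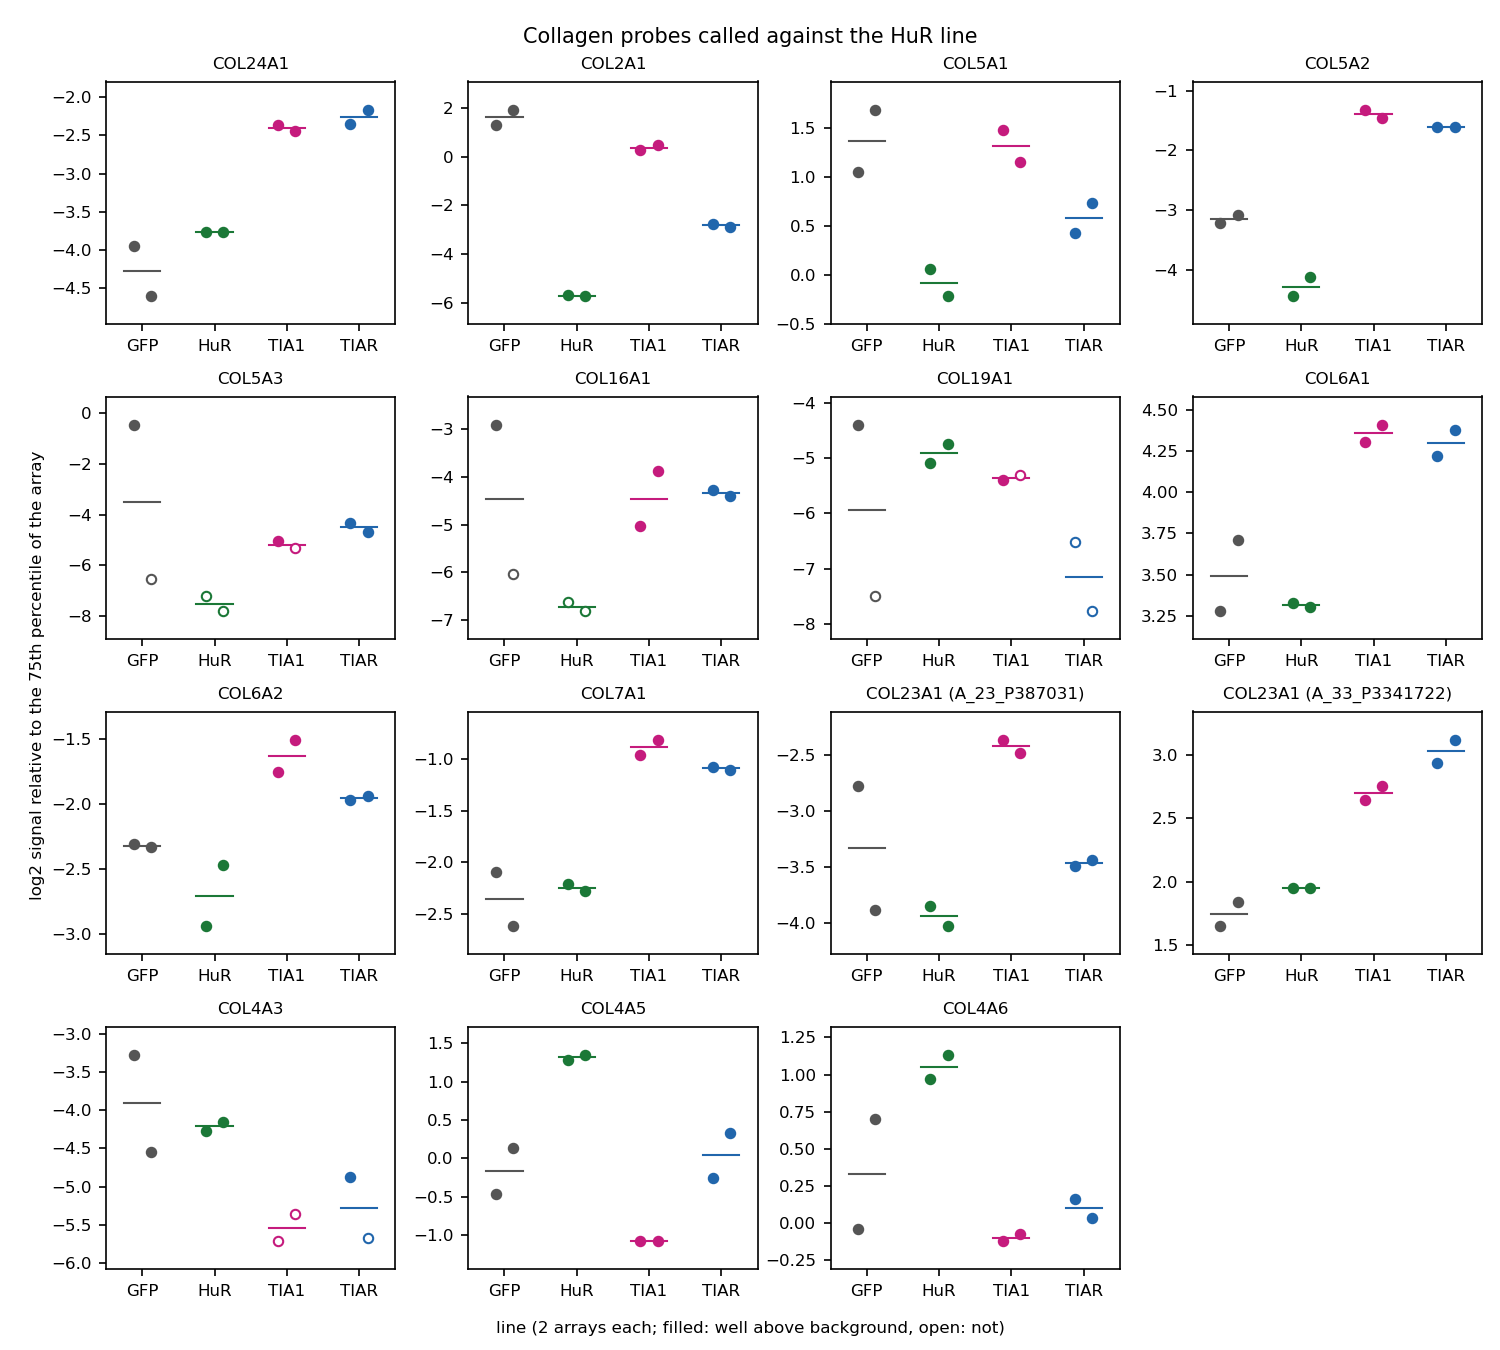
Log2 signal (vertical axes, with a range of their own in each panel) of the 15 collagen probes of 14 genes called against HuR-expressing cells, on the 2 arrays of each line (horizontal axes). Bars are means, and open points are arrays on which the probe was not well above background. COL2A1, COL5A2, COL24A1, COL6A1 and COL7A1 are higher in both TIA lines than in HuR-expressing cells without overlap, and COL4A5 and COL4A6 are lower.

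The values of the type IV genes are given by the pairs introduced above. COL4A5, a chain of the mature glomerular basement membrane, measured -0.47 and 0.13 in GFP-, 1.29 and 1.35 in HuR-, -1.08 and -1.08 in TIA1- and -0.25 and 0.34 in TIAR-expressing cells (A_23_P45365, hg19 chromosome X from 107940580 to 107940639). HuR-expressing cells were highest and TIA1-expressing cells lowest, while GFP- and TIAR-expressing cells overlapped. The log2 difference from HuR-expressing cells was -2.40 (standard error 0.09, adjusted p = 0.00177) with TIA1 and -1.28 (standard error 0.22, adjusted p = 0.0218) with TIAR, and TIAR- exceeded TIA1-expressing cells by 1.12 without reaching the threshold (adjusted p = 0.0735). Its call with TIAR was lost without HuR replicate 1 (adjusted p = 0.109), HuR replicate 2 (adjusted p = 0.124) or TIAR replicate 1 (difference -0.98). Its neighbor COL4A6 (A_23_P217379) measured -0.04 and 0.70 in GFP-, 0.97 and 1.14 in HuR-, -0.12 and -0.07 in TIA1- and 0.16 and 0.03 in TIAR-expressing cells. It differed from HuR-expressing cells by -1.15 (adjusted p = 0.00426) with TIA1 and by -0.95 (adjusted p = 0.0108), under the 2-fold limit, with TIAR. A second, dim COL4A6 probe gave -0.20 with TIAR and was not well above background with TIA1.

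In the pair on chromosome 2 the fitted values had opposite signs. COL4A3 (A_23_P170679) measured -3.27 and -4.55 in GFP-, -4.27 and -4.15 in HuR-, -5.72 and -5.35 in TIA1- and -4.87 and -5.68 in TIAR-expressing cells. It was not well above background with TIA1, at least 2.36-fold below HuR-expressing cells (adjusted p = 0.00687), and with TIAR the log2 difference was -1.06 (adjusted p = 0.0608). The COL4A3 call with TIA1 was lost without HuR replicate 2 and with normexp, the values of the authors or all 8 arrays in one fit. Its log2 difference lay between -1.51 and -0.21 under the limma alternatives. COL4A4 (A_33_P3227400) measured -0.77 and 0.01 in GFP-, -0.92 and -0.94 in HuR-, -0.17 and 0.05 in TIA1- and -0.29 and -0.09 in TIAR-expressing cells, with differences of 0.87 (adjusted p = 0.00855) and 0.75 (adjusted p = 0.0164) that stayed under the 2-fold limit. In the pair on chromosome 13, COL4A2 gave 0.94 (adjusted p = 0.00538) with TIA1 and 0.42 (adjusted p = 0.0396) with TIAR, and COL4A1, its partner in the most widespread type IV molecule, gave 0.24 (95% interval -0.20 to 0.69) and -0.31 (-0.73 to 0.11). Differences between the genes of a pair were not tested, since they are measured by different probes.

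**Figure D4:**
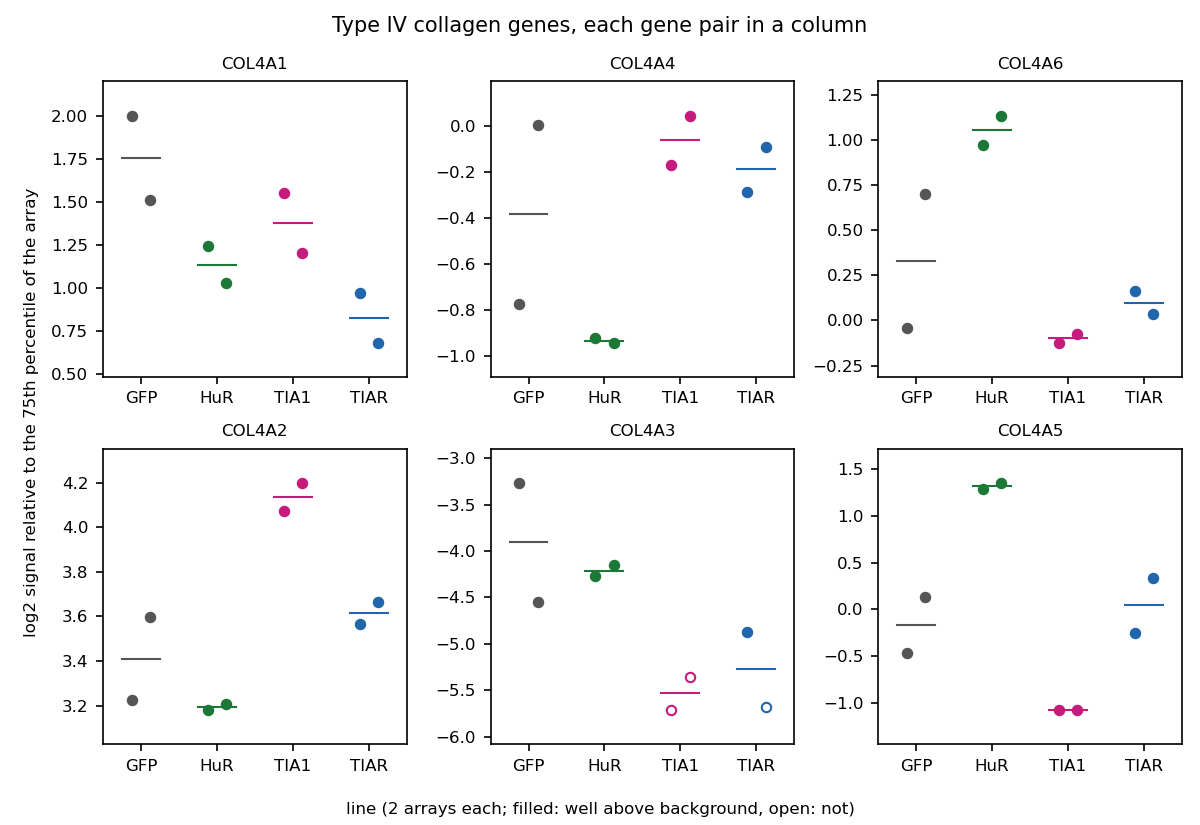
Log2 signal (vertical axes, with a range of their own in each panel) of the 6 type IV collagen genes on the 2 arrays of each line (horizontal axes), with neighboring genes in the same column. Bars are means, and open points are arrays on which the probe was not well above background. COL4A5 and COL4A6 are highest in HuR-expressing cells, and COL4A4 is lowest there.

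Against GFP-expressing cells limma called 0 collagen genes with TIA1, TIAR or HuR (31, 31 and 32 genes tested). The share called over all gene names tested (20741, 21163 and 21376) was also 0% upregulated and 0% downregulated in each of these comparisons. An unadjusted limma p under 0.05 was reached by 16 of 43 collagen probes with TIA1, 12 of 43 with TIAR and 12 of 44 with HuR. Over all probes tested the shares were 21.7%, 16.4% and 17.2%. The methods' paired test without adjustment called 2, 2 and 1 collagen genes, counts that stand without the share over all gene names. COL2A1 differed by -1.25 (95% interval -2.07 to -0.42) with TIA1, -4.43 (-5.25 to -3.61) with TIAR and -7.31 (-8.12 to -6.51) with HuR, with adjusted p of 0.149, 0.116 and 0.0902. With TIA1 the differences of COL24A1 (1.88, 95% interval 1.05 to 2.70) and COL5A2 (1.77, 1.23 to 2.31) were wider. These comparisons share the GFP arrays.

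The GFP comparisons depended on GFP replicate 1. When it was left out, limma assumed that the lone GFP array varied like the arrays of the other line and called 11 collagen genes with TIA1 (8 up- and 3 downregulated), 8 with TIAR (7 and 1) and 9 with HuR (4 and 5). The shares over all gene names were then 8.94% and 5.13%, 6.19% and 2.07%, and 5.87% and 4.92%. COL2A1 was downregulated in all of them, by log2 differences of -1.56, -4.75 and -7.63, and COL12A1, a fibril-associated chain, was upregulated in all. On its brighter probe COL12A1 measured -1.27 and -1.74 in GFP-expressing cells and 0.11 to 0.45 on the other 6 arrays, and it was not called against HuR (-0.04 with TIA1, 95% interval -0.31 to 0.22, and 0.23 with TIAR, -0.06 to 0.52). COL1A1, COL5A2, COL7A1 and COL24A1 were upregulated with TIA1 and TIAR in this setting, whereas COL5A2, with COL5A1, COL6A2 and COL9A3, was downregulated with HuR. COL4A5 was upregulated with HuR by 1.19 and downregulated with TIA1 (-1.21). Without GFP replicate 2 in place of replicate 1, which left the array that stood apart, the counts were 16, 17 and 16 genes. The shares of all gene names up- and downregulated were then 9.35% and 20.03% with TIA1, 7.22% and 19.5% with TIAR, and 5.53% and 24.7% with HuR. COL12A1 was called in both directions by its 2 probes there.

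A list of 72 genes covers the proteins that make, process, bind or break down collagen. Of 63 genes tested with TIA1 against HuR, 2 were upregulated and 5 downregulated, and of 63 tested with TIAR, 2 and 2. These are 3.17% and 7.94% with TIA1, against 10.2% and 5.79% of all gene names, and 3.17% and 3.17% with TIAR, against 8.62% and 3.66%. The median log2 differences were -0.04 in both. Of the hydroxylation and folding group, 1 of 16 genes changed, GLT25D2, an enzyme of the family that adds galactose to hydroxylysine. It measured -1.31 and -1.08 in GFP-, -0.24 and -0.23 in HuR-, -2.63 and -2.76 in TIA1- and -2.27 and -2.55 in TIAR-expressing cells, and was downregulated by -2.46 (adjusted p = 0.00177) and -2.17 (adjusted p = 0.00431). The remaining 15, among them the prolyl and lysyl hydroxylases, were not called. Of 7 export genes KLHL12, an adaptor for ubiquitination of the coat of collagen carriers, was downregulated with TIA1 at 1 of 2 probes (-1.03, adjusted p = 0.0158), a call that was lost without HuR replicate 1 (adjusted p = 0.0756), HuR replicate 2 (adjusted p = 0.0966) or TIA1 replicate 1 (difference -0.81). PCOLCE2, an enhancer of procollagen C-propeptide removal, measured 2.22 and 2.25 in HuR- and 1.03 and 1.16 in TIA1-expressing cells and was downregulated with TIA1 (-1.14, adjusted p = 0.00400).

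Of 6 cross-linking genes, LOXL1, a lysyl oxidase relative best known for elastin fibers, stood higher with TIAR. It measured 0.62 and 1.12 in GFP-, 0.63 and 0.64 in HuR-, 0.74 and 0.77 in TIA1- and 1.88 and 1.87 in TIAR-expressing cells. The TIAR arrays exceeded the rest, by 1.24 against HuR (adjusted p = 0.00528) and by 1.12 against TIA1 (adjusted p = 0.0275). Without any 1 array the latter call was lost (adjusted p 0.108 to 0.129), and the former without HuR replicate 1 (0.0570) or 2 (0.0615). Among 6 genes of collagen breakdown tested, MMP9, a gelatinase, measured -1.83 and -1.59 in GFP-, -2.87 and -2.88 in HuR-, -1.82 and -1.83 in TIA1- and -1.80 and -1.73 in TIAR-expressing cells and was upregulated by 1.05 (adjusted p = 0.00376) and 1.11 (adjusted p = 0.00618). Of the metalloproteinase inhibitors, TIMP3 was downregulated by -1.24 (adjusted p = 0.00388) and -1.13 (adjusted p = 0.00724) and TIMP2 was upregulated with TIA1 (1.01, adjusted p = 0.00401, with 0.998 without TIA1 replicate 1). HuR-expressing cells had the lowest MMP9 signals, and both MMP9 calls were lost with normexp (0.91 and 0.93), quantile normalization (0.83 and 0.92) and the values of the authors (0.67 and 0.68). With TIAR the calls of MMP9 and TIMP3 were lost without HuR replicate 1 (adjusted p = 0.0644 and 0.0696) or HuR replicate 2 (adjusted p = 0.0699 and 0.0687). None of 9 collagen receptor genes tested was called in either comparison, and of 14 genes for regulators of collagen transcription RUNX1 was downregulated with TIA1 at 1 of its 5 probes (-1.02, adjusted p = 0.00433, and -0.97 without TIA1 replicate 1). Against GFP-expressing cells 0 of these genes were called.

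**Figure D5:**
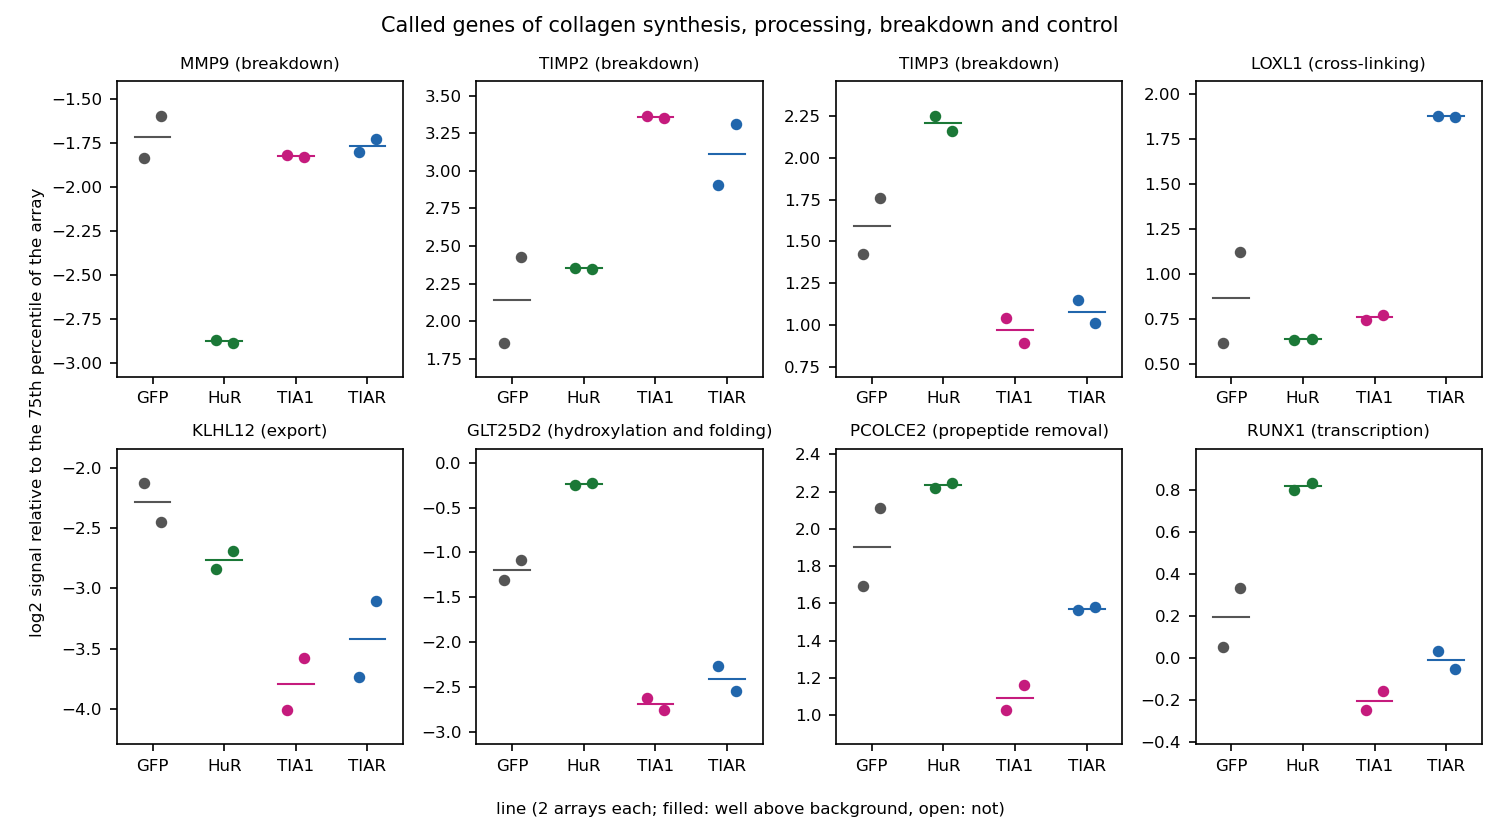
Log2 signal (vertical axes, with a range of their own in each panel) of the 8 called genes for collagen modification, export, processing, cross-linking, breakdown and control on the 2 arrays of each line (horizontal axes). Bars are means, and all points are well above background. GLT25D2 and TIMP3 are lower and MMP9 is higher in both TIA lines than in HuR-expressing cells, and LOXL1 is highest in TIAR-expressing cells.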

How the data were processed

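RNA of FT293 cells was hybridized to one-colour Agilent 8x60K v2 arrays on 1 slide. Probe positions are from the manufacturer's design (hg19), and their exons or untranslated regions were not looked up, since no genome was used here. The deposited processed signals are intensity values from Agilent Feature Extraction 10.7.3.1, background-subtracted and detrended within each array by the authors and not normalized between arrays. The series table deposited by the authors holds normalized log2 values, in which the TIAR arrays share a distribution of their own (median 7.08, against 7.23 to 7.24 on the other arrays). This difference enters the comparisons of TIAR with other lines by these values. The background correction and normalization of that table are not given in the sources used here.

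Processed signals were log2-transformed, the 75th percentile of the array was subtracted, outlier spots were dropped and repeated spots were averaged by probe. A probe was tested if 1 or both compared lines had it well above background on each of their arrays, with limma 3.58.1 (lmFit and eBayes, R 4.3.3) on the 4 arrays of each of 6 comparisons. A call required a change of 2-fold or more and an adjusted p under 0.05 (Benjamini-Hochberg, over all probes tested), and a gene was called where at least 1 probe was. Adjusted p-values in the text are those of limma. For a probe dark on both arrays of a line the fold is a bound, taken against its own signal there or, where higher, the dimmest signal that the array still marked well above background. The limma step was run on simulated data for the comparisons without GFP-expressing cells. The simulation gave all probes of a comparison the same normal spread, so it does not test the step at the unequal spreads of these arrays.

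Named are all called collagen genes, the expressed proteins and the called genes of the collagen pathway list. Where a gene had several probes, the one brightest on average among those tested is described first. COL16A1, COL23A1 and KLHL12 are exceptions, for which a dimmer called probe is described first. The members, lists and tests were chosen with earlier results of these data known. COL1A1, COL9A1, COL9A2, COL9A3, COL11A2, COL12A1, COL22A1 and the type IV partners were named after their values were seen. Alternatives were normexp background correction (offset 50), quantile normalization, the values of the authors, no filter on dim probes, only probes well above background on the 4 compared arrays, a joint fit of the 8 arrays (plain or with array weights), a replicate block, each array left out, and the paired test of the methods. Promoter sequences are from RefSeq (GRCh38.p14), which held a promoter for 31 of the 43 genes. Data were handled with Python 3.11.15, pandas 2.3.3, numpy 2.4.6 and the data.table package (1.17.8) and plotted with matplotlib 3.10.9.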

Additional observations from a re-analysis of the deposited data

How the results depend on the processing

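The 10 genes detected in no line, by the marks of signal over background, were not tested. Under the limma alternatives, the 23 named probe results gave 271 values, of which 210 kept their direction and call, 61 kept their direction and lost the call, and 0 reversed. Called under every one of them were COL2A1, COL4A5, COL4A6 and COL5A2 with TIA1 and COL2A1 and COL5A2 with TIAR, both against HuR. The cause of the losses was not tested.

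With the values of the authors, 7 collagen genes were called with TIA1 and 5 with TIAR against HuR, in place of 12 and 9, and 1 between TIAR and TIA1 in place of 2. The last count was also 1 with normexp, quantile normalization or all 8 arrays in one fit and 0 without a filter on dim probes. Replicate numbers were not shown to pair the arrays, since deviations of replicate 1 from the line mean correlated at -0.09 to 0.18 between lines over 24959 probes, and with the replicate block TIA1 and TIAR against HuR gave 12 and 9 collagen genes and TIAR against TIA1 gave 0. The methods' paired test without adjustment called 7 collagen genes with TIA1 against HuR, 1 between TIAR and TIA1, and 2, 2 and 1 with TIA1, TIAR and HuR against GFP, and after adjustment 0 in every comparison. With only 2 arrays per line this test has little power, so that its 0 calls after adjustment decide nothing. The authors named it for their data in general and used limma for the arrays. All 8 arrays in one fit called 7, 8 and 7 collagen genes with TIA1, TIAR and HuR against GFP, and with array weights 3, 3 and 1. The counts in this paragraph stand without the shares over all gene names and show only how the calls depended on the setting. Leaving out 1 array gave 10 to 13 collagen genes with TIA1 and 4 to 12 with TIAR against HuR, 0 between TIAR and TIA1, and 0 to 16, 0 to 17 and 0 to 16 with TIA1, TIAR and HuR against GFP. For the 12 called results of the collagen pathway list, alternatives chosen after seeing the data gave 144 values, of which 112 kept the call and 32 lost it. GLT25D2 with TIA1 and with TIAR, and PCOLCE2 and TIMP3 with TIA1, kept it throughout.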
